A study of Homo sapiens with 4 samples.

Results

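The mRNAs of 10 core cleavage and polyadenylation factors were followed into an immunoprecipitate (IP) of the fragile X protein FMRP. The genes were CPSF1, CPSF2, CPSF3 and CPSF4 of the cleavage and polyadenylation specificity factor (CPSF), NUDT21, CPSF6 and CPSF7 of cleavage factor I (CFIm), and CSTF1, CSTF2 and CSTF3 of the cleavage stimulation factor (CstF). They were chosen by gene symbol: 21 of the 54675 probe sets on the array carried one of these symbols and no other, and the 10 genes stand among 19775 with a probe set of their own. A further 2 probe sets list CPSF1 together with other genes and were not used. The samples were 2 anti-FLAG IP RNAs and 2 RNAs of the clarified lysate taken before the IP, each on its own Affymetrix Human Genome U133 Plus 2.0 array. All 4 came from a stable FlpIn T-Rex HEK293 line, human embryonic kidney cells that carry a doxycycline-switched transgene, here FMRP with a FLAG and HA tag, induced with 1 µg/ml doxycycline for 16 h. The precipitated protein was therefore a tagged transgene product in 1 cell line, and no IP without FMRP is among these samples. Whether replicates are separate cultures is not in the labels, so p-values measure only the spread between these arrays, which may be technical.

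Almost every mRNA ends at a site where the nascent transcript is cut and a poly(A) tail is added. CPSF reads the AAUAAA signal and makes the cut, CstF binds the GU-rich stretch downstream of it, and CFIm binds UGUA motifs upstream and biases the choice among alternative sites, and so the length of the 3′ end. FMRP binds mRNAs, most of them in the cytoplasm, and is best known as a repressor of translation at synapses; its loss causes fragile X syndrome.

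Values are deposited signals per probe set on a log2 scale, and a change is the mean of the IP arrays minus that of the lysate arrays. For a value per gene, the probe set with the highest mean was used if that mean reached 4.70, the median of all probe sets, and limma was fitted over 13157 genes. Of these, 63.9% passed an adjusted p of 0.05, 35% higher and 28.8% lower in the IP, so a call by itself was common. A fit over all 54613 probe sets that are no controls gave each of the 21 its own value; there 28.7% were called. The median gene changed by 0.080. Hybridization controls, spiked into each sample, were 0.48 higher in the IPs than in the lysates; with arrays centred on them, the median gene was at -0.40 and 24.7% of calls were higher in place of 54.9%. The IP and lysate arrays also differed in the balance of 3′ and 5′ signal. For the ACTB control probe sets, the 3′ signal exceeded the 5′ signal by 3.02 and 2.96 on the IP arrays, against 1.37 and 1.34 on the lysate arrays. For GAPDH the excess was 0.94 and 1.03 on the IP arrays and 0.19 on each lysate array. The IP arrays lay above the lysate arrays in both cases without overlap, and the part of this in the results below was not tested. Of 6 genes chosen as markers of HEK293 cells, 5 were over the filter, NEFM not. Lysate means of these 5 ran from 6.28 for PAX2 to 12.8 for VIM, with 11.7 for NEFL. Of 7 markers of other cells, PTPRC, CD3E, CDH5, COL1A2 and ALB were under the filter. PECAM1 averaged 5.67 in the IPs and 5.14 in the lysates for 1559921_at, and its other probe sets were under the filter. COL1A1 averaged 7.47 in the IPs and 7.15 in the lysates for 217430_x_at. Other COL1A1 probe sets differed more: 1556499_s_at averaged 7.41 in the IPs and 4.28 in the lysates, 202310_s_at averaged 6.15 in the IPs and 4.39 in the lysates, and 202312_s_at changed by -0.057. The part of these markers in the results was not tested.

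**Figure D1:**
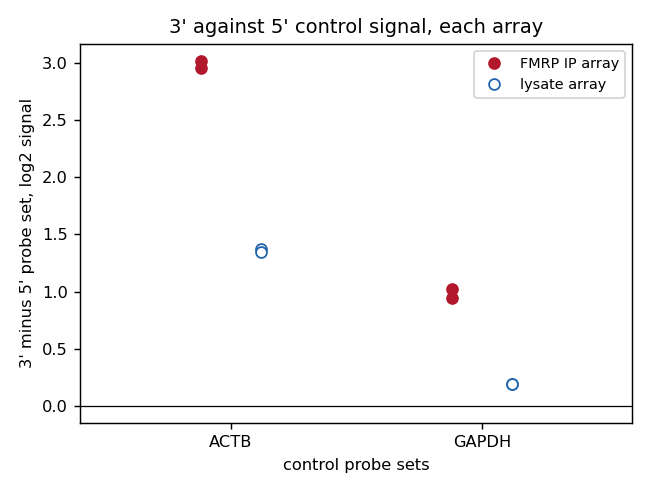
Difference in log2 signal between the 3′ and the 5′ control probe set of ACTB and GAPDH (vertical axis), with 1 point per array. The IP arrays lie at 2.96 to 3.02 for ACTB and 0.94 to 1.03 for GAPDH, above the lysate arrays at 1.34 to 1.37 and 0.19.

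All 10 genes reached the gene fit. Of these, 6 were higher in the IP (CSTF1, CPSF1, CSTF3, CPSF3, CSTF2 and CPSF6), NUDT21 was lower, and CPSF2, CPSF4 and CPSF7 were not called. The 7 called genes of 10 stand beside 63.9% of all genes called. Their median change was 0.45, with a range of -1.60 to 1.48, against a median of 0.080 over all genes. With hybridization control centring their median was -0.025, against -0.40 over all genes. There 3 of the 10 were higher and 4 lower, beside 2090 and 6385 of all 13157 genes. Averaging all of a gene's probe sets over the filter gave 0.11, against 0.069 over all genes, with 4 higher and 2 lower. With unique probe sets it was 0.29 over the 8 members tested. By complex, with 1 probe set per gene, the 3 CstF genes were all called higher, beside 35% of all genes. The CPSF genes split into 2 called higher and 2 not called, and CFIm held 1 higher, 1 lower and 1 not called. The CstF calls depend on the probe set: CSTF3 probe sets 229665_at and 229666_s_at were called lower in the probe set fit. Neither CSTF2 probe set was called in that fit. Over probe sets, 12 of the 21 were called, beside 28.7% of all probe sets, 6 of them higher and 6 lower, beside 14.5% and 14.1%. The IP and lysate arrays did not overlap for 18 of the 21, beside 63.5% of all probe sets. The IP arrays were above for 11 and below for 7, beside 34.9% and 28.6%. Of the 21 member probe sets, 20 reached the filter, against 27281 of all 54613. The shares over all probe sets thus include many more low signals, and these comparisons are not matched for signal.

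**Figure D2:**
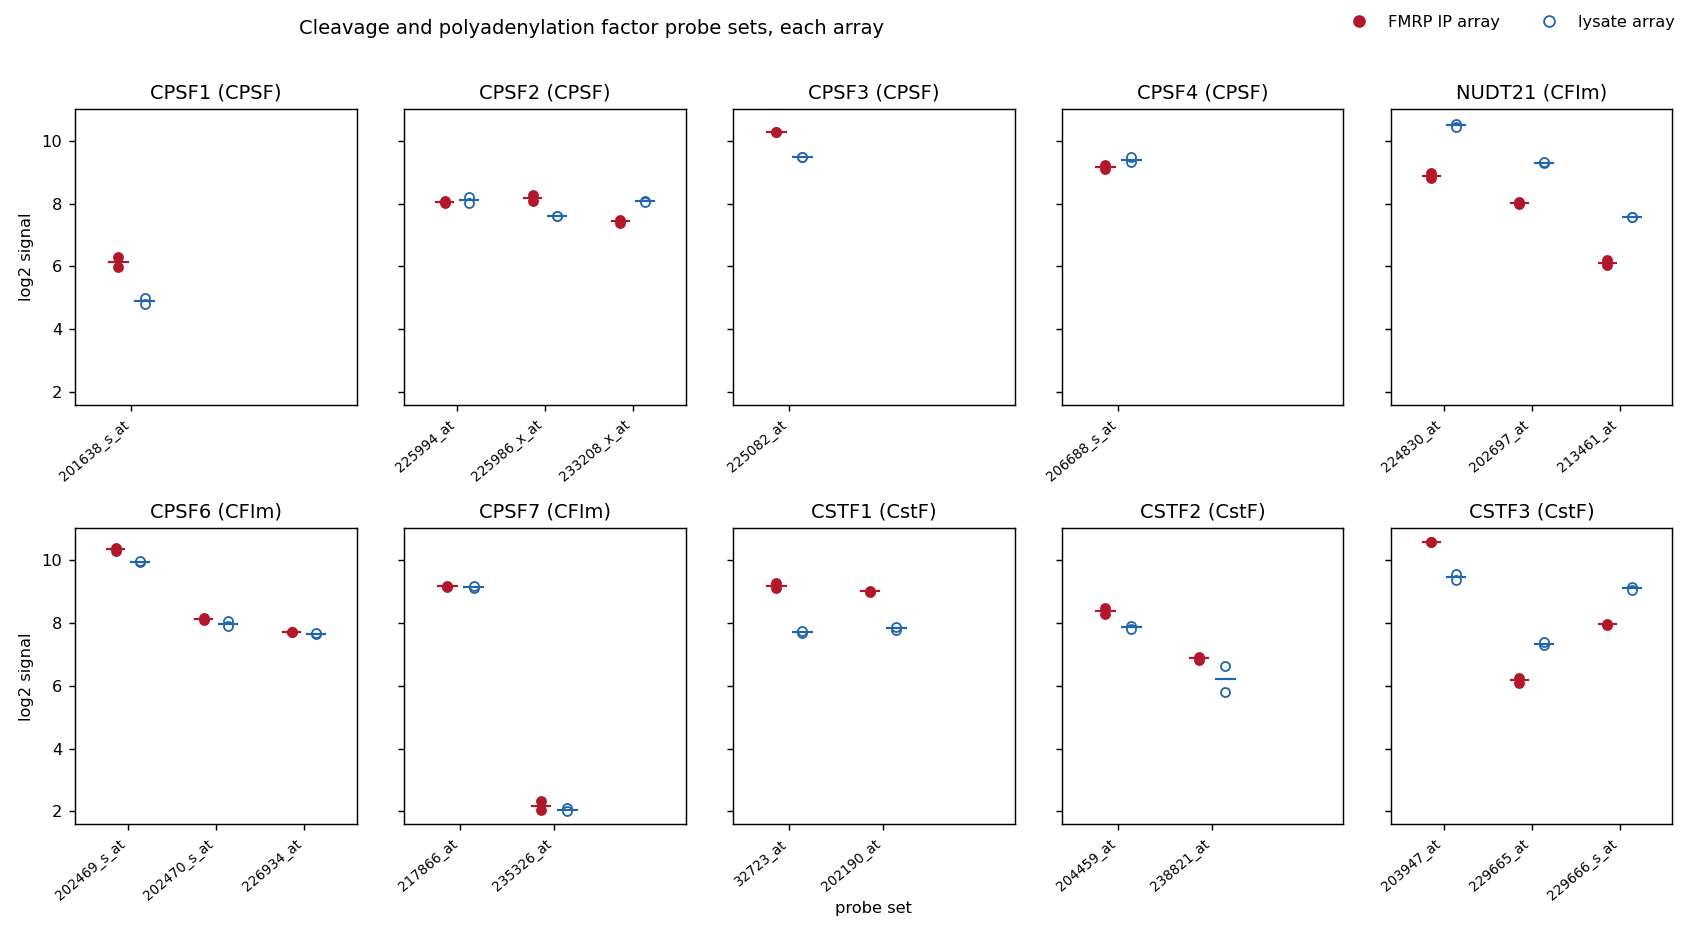
Log2 signal (vertical axis) of all 21 probe sets of the 10 genes, with a filled point for each IP array, an open point for each lysate array and a bar for each group mean. All 3 NUDT21 probe sets were lower in the IP, and the CSTF3 probe sets went in opposite directions.

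NUDT21 encodes the CFIm subunit that recognizes UGUA, and its mRNA had the lowest change of the 10. Probe set 224830_at had 8.97 and 8.83 in the IPs, against 10.54 and 10.46 in the lysates. The IP arrays lay far below both lysate arrays, and the change was -1.60 ± 0.12 (SE, n = 2 each; 95% interval -1.88 to -1.32; limma, adjusted p = 3.9e-05). The lysate signal was thus 3.04-fold that of the IP, and 4.48% of the 13157 genes had a lower change. The other probe sets of NUDT21 moved the same way. Probe set 202697_at stood at 8.07 and 7.99 in the IPs and at 9.29 and 9.31 in the lysates. For 213461_at the signals were 6.04 and 6.21 in the IPs and 7.59 and 7.57 in the lysates. Their changes of -1.27 and -1.45 passed in the probe set fit (limma, adjusted p = 0.00276 and 0.00236). Neither change differed from that of 224830_at beyond the spread between arrays: the differences were 0.33 (95% interval -0.00067 to 0.66) and 0.15 (-0.24 to 0.53). NUDT21 stayed called lower in all 14 alternatives, with changes between -2.08 and -1.44.

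The 2 larger CFIm subunits, CPSF6 and CPSF7, are paralogs that pair with the NUDT21 protein. CPSF6 had 10.39 and 10.31 in the IPs, against 9.94 and 9.96 in the lysates, for 202469_s_at. That is a change of 0.39 ± 0.11 (SE, n = 2 each; limma, adjusted p = 0.0176), small in size though the groups did not overlap. The call is not firm: it was lost without IP replicate 1 (0.35), lysate replicate 1 (0.38) or lysate replicate 2 (0.40), with hybridization control centring (-0.087), and in the probe set fit (adjusted p = 0.0927). Over all 14 alternatives of the gene fit, the limma adjusted p of CPSF6 was at most 0.05 in 7. The other CPSF6 probe sets, 202470_s_at and 226934_at, changed by 0.14 and 0.064 and were not called. CPSF7 stood at 9.19 and 9.15 in the IPs and 9.12 and 9.19 in the lysates for 217866_at. These groups overlapped, and the change was 0.014 (95% interval -0.25 to 0.28; limma, adjusted p = 0.921); with hybridization control centring it was -0.46 and was called lower. The second CPSF7 probe set, 235326_at, lay between 2.01 and 2.33 on all 4 arrays, the only member probe set under the filter. The change of CPSF7 was 0.38 below that of CPSF6 (95% interval of the difference -0.70 to -0.060), and this difference was not called (limma, adjusted p = 0.0679). The NUDT21 interval of -1.88 to -1.32 lies wholly below those of its partners.

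CSTF1 had the largest rise of the 10. It encodes the WD-repeat subunit of CstF. Probe set 32723_at had 9.11 and 9.26 in the IPs, against 7.67 and 7.74 in the lysates. The IP signal was 2.79-fold higher (change 1.48 ± 0.12 SE, n = 2 each; limma, adjusted p = 4.8e-05), and both IP arrays lay above both lysate arrays. The other CSTF1 probe set, 202190_at, had 9.01 and 9.0 in the IPs and 7.79 and 7.88 in the lysates. Its change of 1.17 also passed in the probe set fit (limma, adjusted p = 0.00332) and did not differ from that of 32723_at beyond the spread (difference -0.31, 95% interval -0.64 to 0.026).

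CSTF2, an X-linked gene, encodes the RNA-binding subunit of CstF. Probe set 204459_at stood at 8.30 and 8.47 in the IPs and 7.92 and 7.82 in the lysates. The 1.43-fold higher IP signal passed in the gene fit (change 0.52 ± 0.12 SE, n = 2 each; limma, adjusted p = 0.00732) and was just outside the threshold in the probe set fit (adjusted p = 0.052). With hybridization control centring the change was 0.038 and was not called. Its second probe set, 238821_at, had 6.92 and 6.83 in the IPs, against 5.81 and 6.62 in the lysates, where lysate replicate 1 was low. That change of 0.66 was not called (limma, adjusted p = 0.145); without lysate replicate 2 it was 1.06 and was called. CSTF2T, an autosomal paralog on chromosome 10 that can stand in for CSTF2, had 8.27 and 8.30 in the IPs and 7.71 and 7.85 in the lysates. Its change of 0.50 (limma, gene fit, adjusted p = 0.00695) differed from that of CSTF2 by -0.017, with a 95% interval of -0.39 to 0.36. For 212901_s_at, the probe set of these values, the change was just outside the threshold in the probe set fit (limma, adjusted p = 0.0509). The second CSTF2T probe set, 212905_at, changed by -0.033, so this rise rests on 1 of 2 probe sets. With their mean the change was 0.23 (limma, adjusted p = 0.139), and with hybridization control centring it was 0.021; neither was called.

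CSTF3 encodes the scaffold that holds CstF together, and its probe sets went in opposite directions. Probe set 203947_at had 10.58 and 10.59 in the IPs, against 9.57 and 9.36 in the lysates. That is a 2.17-fold higher IP signal (change 1.12 ± 0.12 SE, n = 2 each; limma, adjusted p = 1.6e-04 in the gene fit). Probe set 229665_at had 6.26 and 6.09 in the IPs and 7.29 and 7.40 in the lysates. Likewise, 229666_s_at had 7.95 and 7.98 in the IPs and 9.16 and 9.07 in the lysates. Both fell, by 1.17 and by 1.15 on the log2 scale (limma, probe set fit, adjusted p = 0.00396 and 0.00352). In none of the 3 did the groups overlap. CSTF3 is known as a gene that makes a short mRNA by polyadenylation inside one of its own introns; which transcripts each probe set detects was not determined here.

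The disagreement within CSTF3 was tested directly, as the change of one probe set minus the change of the other, a quantity from which array-wide scaling cancels. The difference to 203947_at was -2.29 ± 0.17 for 229665_at and -2.26 ± 0.13 for 229666_s_at (SE, n = 2 each; limma, adjusted p = 0.00198 and 0.00197). Among 10362 such differences in 6246 genes and 3 paralog pairs, 35.1% were called, and 99.5% and 99.4% were smaller in size than those of CSTF3. Both differences were called under each of the 6 alternatives run for them. With the mean of its 3 probe sets the gene changed by -0.40 and was called lower, so the direction given for CSTF3 holds for 203947_at only. As stated above, the 3′ excess of the control genes was also larger on the IP arrays, and its part in this disagreement was not tested.

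**Figure D3:**
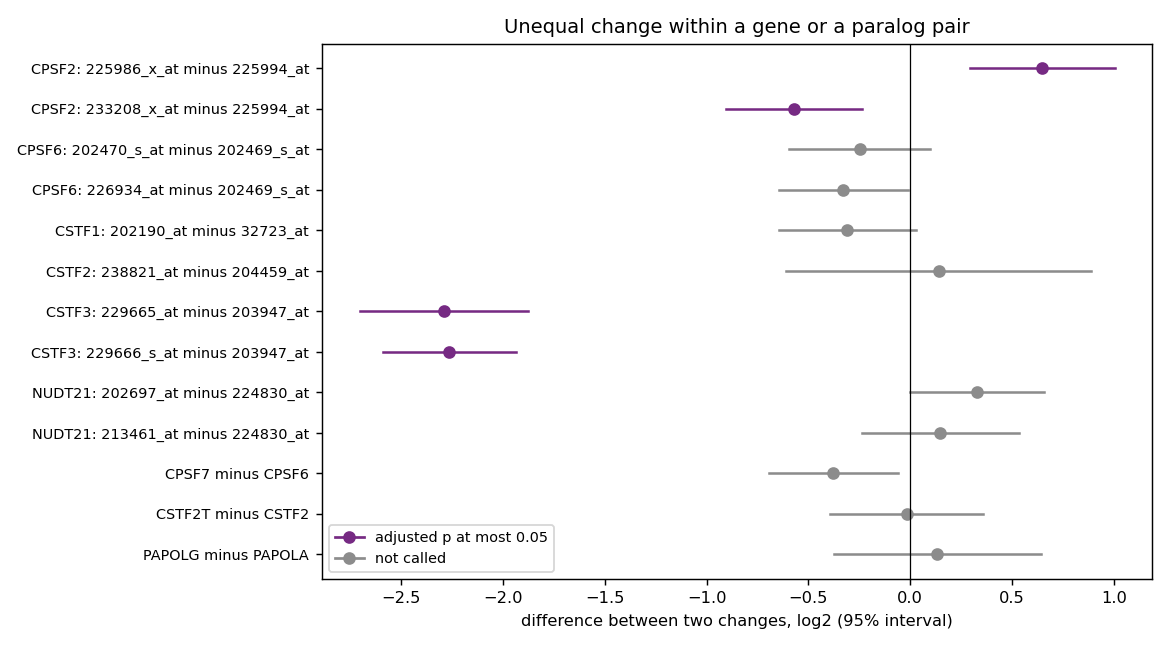
Change of one probe set minus the change of another of the same gene, or of one paralog minus the other (horizontal axis, log2, points with 95% intervals). The CSTF3 differences of -2.29 and -2.26 stand apart from all others shown, which lie between -0.57 and 0.65.

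CPSF1 encodes the large scaffold of CPSF and CPSF3 the endonuclease that cuts the transcript; both were higher in the IP. CPSF1 had 6.31 and 5.97 in the IPs, against 5.0 and 4.81 in the lysates, for its single usable probe set 201638_s_at. The groups did not overlap, and the IP signal was 2.36-fold higher (change 1.24 ± 0.15 SE, n = 2 each; limma, adjusted p = 2.4e-04). These lysate values are near the median signal of an array (4.67 to 4.71), and the floor of such low signals is unknown. CPSF3, also with 1 probe set, 225082_at, stood at 10.30 and 10.29 in the IPs and 9.49 and 9.47 in the lysates. The groups did not overlap, and the 1.76-fold higher IP signal passed (change 0.81 ± 0.11 SE, n = 2 each; limma, adjusted p = 4.6e-04). With hybridization control centring CPSF3 changed by 0.33 and was not called.

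CPSF2, a catalytically inactive relative of CPSF3 and its partner, and CPSF4, a zinc finger subunit that contacts the AAUAAA signal, were not called. CPSF4 had 9.09 and 9.23 in the IPs, against 9.34 and 9.48 in the lysates, for 206688_s_at. The IP arrays lay below both lysate arrays by a small margin, and the change was -0.25 (95% interval -0.54 to 0.040; limma, adjusted p = 0.114). With hybridization control centring it was -0.73 and was called lower. For CPSF2, 225994_at had 8.09 and 8.03 in the IPs and 8.22 and 8.03 in the lysates. These overlapped, with a change of -0.065 (95% interval -0.35 to 0.22; limma, adjusted p = 0.667); with hybridization control centring it was -0.54 and was called lower.

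The other CPSF2 probe sets, both of the x_at class that can cross-hybridize, disagreed with each other. Probe set 225986_x_at had 8.28 and 8.09 in the IPs and 7.60 and 7.59 in the lysates. By contrast, 233208_x_at had 7.48 and 7.39 in the IPs and 8.09 and 8.05 in the lysates. Their changes of 0.58 and -0.64 were called in the probe set fit (limma, adjusted p = 0.0344 and 0.0217), and their differences to 225994_at of 0.65 and -0.57 were called too (adjusted p = 0.0198 and 0.0239). These calls are not firm. The call of 225986_x_at was lost without IP replicate 1, lysate replicate 1 or lysate replicate 2, and that of 233208_x_at without IP replicate 2, lysate replicate 1 or lysate replicate 2. Of the 6246 genes with several probe sets over the filter, 126, or 2.02%, had probe sets called in opposite directions, CPSF2 and CSTF3 among them.

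Among 14 other factors of the same machinery, 13 were measured over the filter, WDR33 not. Of these 8 were higher in the IP and 3 lower, beside 35% and 28.8% of all genes, with a median change of 0.50. With hybridization control centring the median was 0.021, against -0.40 over all genes. There 3 were higher and 4 lower, beside 2090 and 6385 of all 13157 genes. RBBP6, a large ubiquitin ligase that associates with the cleavage machinery, had 9.50 and 9.59 in the IPs, against 7.86 and 7.32 in the lysates. Its 3.88-fold higher IP signal (change 1.96 ± 0.18 SE, n = 2 each; limma, adjusted p = 7.3e-05) exceeded that of 99.1% of genes. RBBP6 probe sets 205178_s_at and 212781_at changed by 1.94 and 1.98, but 223802_s_at, at 5.95 and 6.60 in the IPs and 7.77 and 8.17 in the lysates, changed by -1.70 and was called lower (limma, probe set fit, adjusted p = 0.00678). Its 3 remaining probe sets over the filter changed by -0.19, -0.053 and 0.61. SYMPK, the scaffold that joins CPSF and CstF, had 9.28 and 9.24 in the IPs and 7.58 and 7.97 in the lysates, a 2.79-fold higher IP signal (adjusted p = 1.0e-04). A second SYMPK probe set, 202339_at, changed by 1.48, and 1554595_at by -0.059. PCF11, named after its values were seen, was not called for 203378_at, with a change of 0.25. Its other probe set, 227622_at, changed by -1.20 and was called lower (limma, probe set fit, adjusted p = 0.00454).

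PAPOLA, PAPOLG and PPP1CB were the 3 lower genes of this list. PAPOLA, the main nuclear enzyme that adds the tail, had 10.11 and 9.96 in the IPs, against 11.22 and 10.80 in the lysates, for 212718_at. Its change of -0.97 ± 0.16 (SE, n = 2 each; limma, adjusted p = 0.00111) was the smallest of its 5 probe sets over the filter. The other 4, from 209388_at at -1.82 and 212720_at at -1.36 to 222035_s_at at -2.27 and 228569_at at -2.57, were lower as well. PAPOLG, its paralog, had 6.96 and 6.46 in the IPs and 7.54 and 7.55 in the lysates, a change of -0.84 (limma, adjusted p = 0.00332). Its difference from the change of PAPOLA was 0.13, with a 95% interval of -0.38 to 0.64. PPP1CB, a catalytic subunit of protein phosphatase 1, stood at 7.83 and 7.71 in the IPs and 9.0 and 8.94 in the lysates, a change of -1.20 (limma, adjusted p = 9.0e-05). Its other 3 probe sets changed by -0.86, -1.90 and -1.18.

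**Figure D4:**
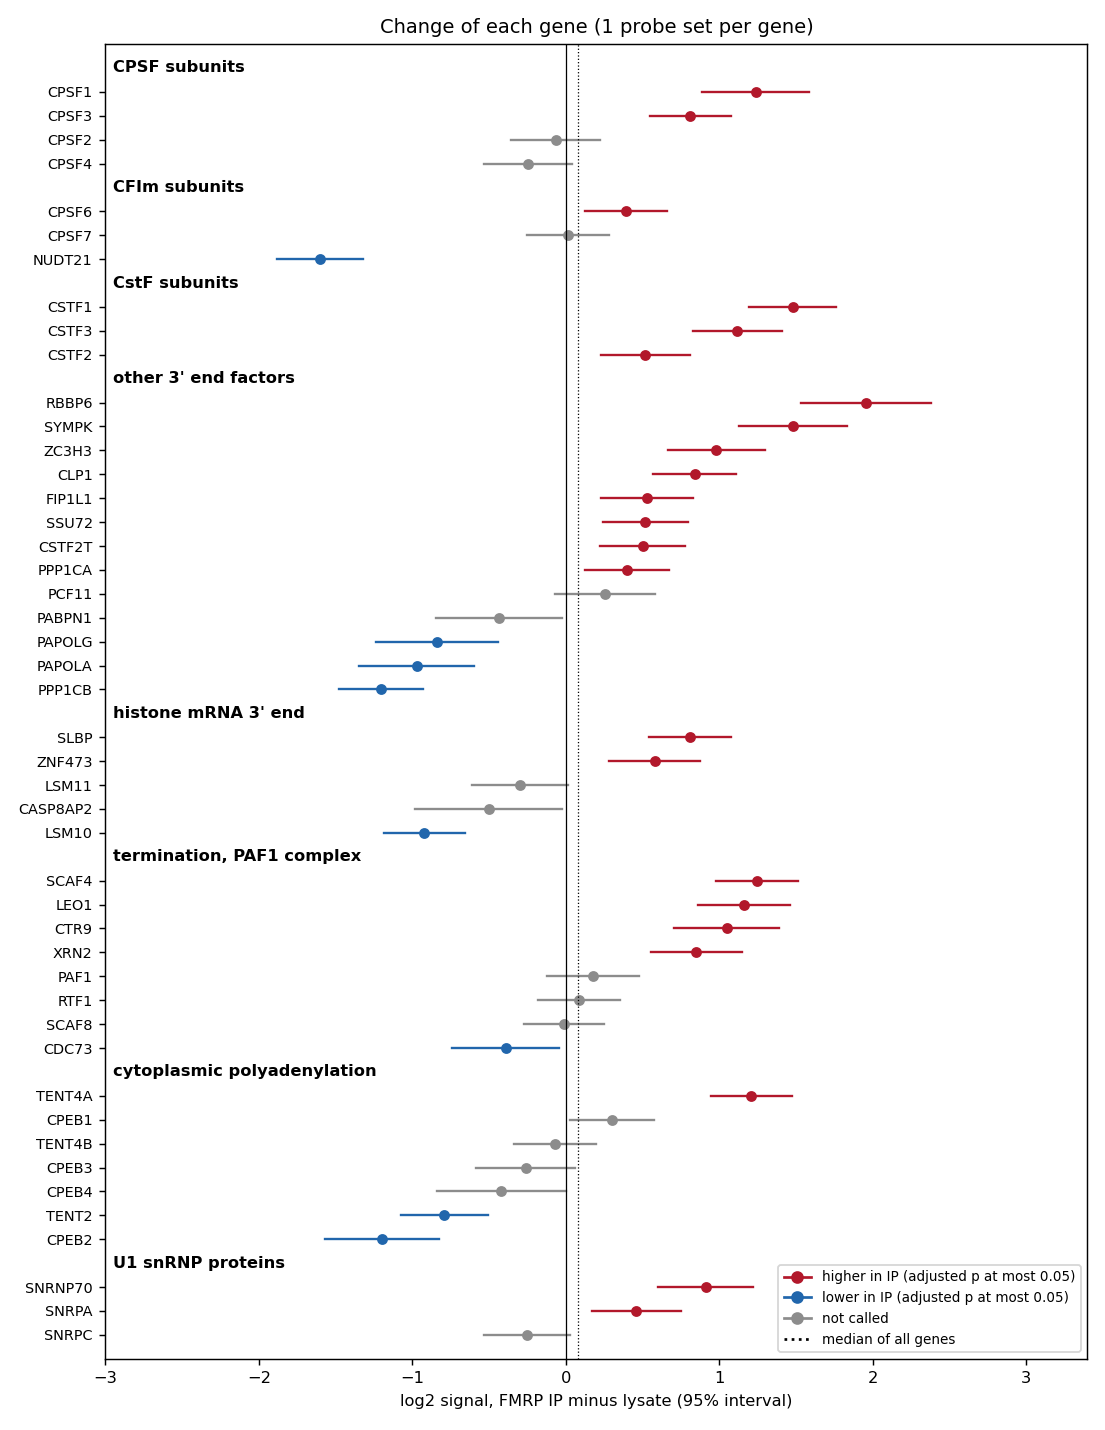
Change in the IP relative to the lysate (horizontal axis, IP minus lysate, log2, points with 95% intervals) of the 10 members and of the related genes, grouped by role, with 1 probe set per gene. NUDT21 at -1.60 is the lowest of all shown, and RBBP6 at 1.96 is the highest.

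Histone mRNAs have no poly(A) tail and are cut by a machinery of their own that borrows CPSF subunits. Over all genes, 35% were higher and 28.8% lower. Of its 5 dedicated genes measured, 2 were higher, 1 was lower and 2 were not called (median -0.30, or -0.78 with hybridization control centring). With that centring the median of all genes was -0.40, and 6385 of 13157 were lower. Of the 5 genes, 3 were then lower (limma), while SLBP at 0.33 (adjusted p = 0.0773) and ZNF473 at 0.10 were not called. SLBP, which binds the histone stem-loop, had 11.40 and 11.47 in the IPs and 10.63 and 10.61 in the lysates (change 0.81; limma, adjusted p = 4.9e-04), and ZNF473, named after its value was seen, changed by 0.58. LSM10, a subunit of the U7 particle, had 8.01 and 8.06 in the IPs, against 8.97 and 8.93 in the lysates (change -0.92; adjusted p = 2.5e-04). CASP8AP2 changed by -0.50 and was not called (adjusted p = 0.0629); its lysate arrays stood apart at 8.85 and 8.19. CASP8AP2 was called lower without lysate replicate 2 (-0.83), while without lysate replicate 1 it changed by -0.17 and was not called. It was also called lower with quantile normalization (-0.54), an intensity trend, a mean of at least 6 and hybridization control centring (-0.98).

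For transcription termination and the PAF1 elongation complex, 8 genes were measured over the filter. There 4 were higher and 1 was lower, beside 35% and 28.8% of all genes, and the median was 0.51. The median was 0.035 with hybridization control centring, against -0.40 over all genes. With that centring 3 were higher and 2 lower, beside 2090 and 6385 of all 13157 genes. XRN2 at 0.37 (limma, adjusted p = 0.0841) was then not called. SCAF4, which restrains early polyadenylation, had 10.54 and 10.47 in the IPs and 9.25 and 9.27 in the lysates (change 1.25; limma, adjusted p = 7.1e-05). LEO1, a PAF1 complex subunit, had 7.59 and 7.80 in the IPs and 6.58 and 6.49 in the lysates (change 1.16; adjusted p = 1.5e-04). CTR9 and the exonuclease gene XRN2, named after their values were seen, changed by 1.05 and 0.85. CDC73 was the lower gene at -0.39 (adjusted p = 0.0497), a call that was lost without IP replicate 2 (-0.21), lysate replicate 1 (-0.35) or lysate replicate 2 (-0.43); another of its probe sets changed by 0.74.

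Cytoplasmic polyadenylation lengthens tails outside the nucleus. All 7 genes of this group were measured, with 1 higher and 2 lower, beside 35% and 28.8% of all genes. The median was -0.26. The median was -0.74 with hybridization control centring, against -0.40 over all genes. With that centring 1 was higher and 5 lower, beside 2090 and 6385 of all 13157 genes. CPEB4, named after its values were seen, was not called for 224829_at, with a change of -0.42. Its other probe sets over the filter, 224828_at and 224831_at, changed by -1.13 and -0.64. Both were called lower (limma, probe set fit, adjusted p = 0.00537 and 0.0234). TENT4A, a noncanonical poly(A) polymerase, had 11.45 and 11.43 in the IPs and 10.24 and 10.22 in the lysates (change 1.21; limma, adjusted p = 7.5e-05). CPEB2, of the family that binds the cytoplasmic polyadenylation element, had 6.02 and 5.75 in the IPs, against 6.92 and 7.25 in the lysates (change -1.20; adjusted p = 3.6e-04). TENT2, the cytoplasmic poly(A) polymerase, had 6.54 and 6.49 in the IPs and 7.39 and 7.22 in the lysates (change -0.79; adjusted p = 7.7e-04). The U1 snRNP shields transcripts from early polyadenylation. Of its 3 protein genes 2 were higher and none was called lower, beside 35% and 28.8% of all genes, with a median of 0.46. With hybridization control centring the median was -0.021, against -0.40 over all genes. SNRPC at -0.73 was then called lower (limma), beside 6385 of all 13157 genes. SNRNP70 at 0.43 (limma, adjusted p = 0.0547) and SNRPA at -0.021 were then not called. SNRNP70 changed by 0.91 (adjusted p = 5.9e-04), with its other probe set at -0.15, SNRPA by 0.46 (adjusted p = 0.0128), a call lost without lysate replicate 1, and SNRPC by -0.25 (adjusted p = 0.0988).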

How the data were processed

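Per the labels' protocols, the wash of the precipitates held 300 mM KCl, and each array received biotin-labelled target made from 2 µg of RNA. The deposited log2 signals had array medians of 4.67 to 4.71; the sources used here do not state how the authors normalized them or corrected background, nor any batch. Precision is limited by the number of arrays. Among the 54675 probe sets, 62 were controls and 41091 had 1 gene symbol; Entrez numbers linked 41037 to the RefSeq genes of GRCh38.p14, used for names and chromosomes only. The difference IP minus lysate came from limma 3.58.1 under R 4.3.3 (no covariate, Benjamini-Hochberg over all features tested, threshold 0.05) on genes, on probe sets and on differences between probe sets, and the code was tested on simulated data. Figures were drawn with matplotlib 3.10.9. The members, lists, tests and alternatives were chosen with earlier results of these data known. Named are all members and, per list, the 2 genes that moved farthest with the list median and the 1 that moved farthest against it, plus CSTF2T, PAPOLA, PAPOLG and FMR1. ZNF473, XRN2, CTR9, PCF11 and CPEB4 were named after their values were seen. FMR1 changed by -0.42 for 215245_x_at (limma, gene fit, adjusted p = 0.0261), a call lost without IP replicate 2 or without either lysate replicate. In the probe set fit 215245_x_at was not called (limma, adjusted p = 0.114). The other FMR1 probe set over the filter, 203689_s_at, changed by -0.69 (limma, probe set fit, adjusted p = 0.0291). A planned grouping by protein length was not run, and no sequence is printed because the tables used here hold no transcripts or proteins. The result of 1 listed gene is not reported here.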

Additional observations from a re-analysis of the deposited data

How the results depend on the processing

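The scale decides how many genes count as higher. With hybridization control centring 2090 genes were higher and 6385 lower, and among the members 3 were higher and 4 lower. There CPSF6 was at -0.087, CPSF7 at -0.46 and SNRPA at -0.021. With at least 2-fold required, 1639 genes were higher, 1683 lower, and 3 members higher. With the mean of each gene's kept probe sets the members' median was 0.11, with 4 higher and 2 lower, CSTF3 turning to -0.40 and CDC73 to 0.13. With unique probe sets SNRNP70 was at -0.15 and CSTF2T at -0.033. Of the 4 differences called between member probe sets, 2 were called with no filter, and 2 to 3 with 1 array left out; the CSTF3 differences passed each time. With 1 array left out, 4007 to 4450 genes were higher and 3386 to 3624 lower, and 5 to 6 members were higher and 1 lower. Same-numbered arrays deviated with r = 0.10 across genes, which cannot show whether they share a culture, as there are 2 arrays per group. With the replicate number as a block 4730 genes were higher and 3868 lower, and 6 members were higher and 1 lower. Of the member probe sets, 5 were then higher and 6 lower, and 4 member differences were called. With that block CASP8AP2 was called lower (limma, adjusted p = 0.0352). The causes were not tested. No detection calls were used, so low signals have no known floor.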
